A study of Mus musculus with 2 samples.

Results

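The genes described here are 10 immediate early genes and subunits of the AP-1 transcription factor: Fos, Fosb, Fosl2, Jun, Junb, Jund, Atf3, Egr1, Ier2 and Nr4a1. They were chosen by name from the 25943 genes listed for mouse bone marrow, and all 10 were found. The study set marrow of mice with a stroke model, middle cerebral artery occlusion (MCAO, a blockage of a main artery of the brain), against marrow of control mice. Single cells were captured in microwells with the BD Rhapsody system, and each captured transcript was marked at its 3′ end with a unique molecular identifier (UMI), so that a UMI stands for 1 captured molecule. There were 2 libraries, 1 per group. The MCAO library came from wild-type male mice of 8 to 10 weeks after MCAO, and the control library from wild-type male mice of the same age whose disease state is given as control. The labels give neither the time after MCAO nor the number of mice pooled, and they do not say whether control mice had a sham operation. Both marrows came from tibias and femurs and went through lysis of red blood cells.

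AP-1 is a dimer of a Jun protein with a Fos protein or a related basic leucine zipper protein such as Atf3. Most of its genes, with Egr1, Ier2 and Nr4a1, are immediate early genes, whose promoters are held ready and whose transcripts are short-lived. Growth factors, cytokines, antigen receptor signals or cell stress raise these transcripts within minutes through MAP kinases, serum response factor and CREB. Jund depends less on stimulation. In marrow, AP-1 subunits take part in myeloid differentiation, and Nr4a1 is required for the patrolling, Ly6C-low monocytes of the mouse.

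Cells numbered 5398 after MCAO (median depth 4952 UMIs) and 5212 in the control library (median depth 3344 UMIs). The cells were grouped into 25 clusters without using the 10 genes or other immediate early, dual specificity phosphatase and heat shock genes, and the clusters were named from marker genes. The names are rebuilt and are not the study's own. Of 15 classes, 13 had at least 50 cells in each library and are compared; natural killer-like and eosinophil-like cells are not. Progenitor, erythroid, neutrophil precursor and B-cell precursor clusters were all found, as marrow should hold. Levels are given as UMIs of a gene per 10000 UMIs of the class, with exact Poisson 95% intervals, and ratios as the MCAO level over the control level with exact binomial 95% intervals. Intervals cover counting error only: with 1 library per group there is no replicate, no test between conditions exists, and the spread between mice and between preparations cannot be told apart from an effect of MCAO. Cells were named by running codes, of which 5120 occurred in both libraries, so shared barcodes could not be counted. Transcripts of other cell types differed between the libraries: in monocyte-like cells, the 4 adult haemoglobin genes summed to a level of 15.5 in the MCAO library and 8.51 in the control library, and 7 B-cell development genes to 0.346 in the MCAO library and 1.05 in the control library. Their part in the results below was not tested.

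In the GENCODE annotation of GRCm38, Fos lies at chr12:85473890-85477273 on the plus strand, Fosb at chr7:19302696-19310051 on the minus strand and Fosl2 at chr5:32135801-32157842 on the plus strand. Jun lies at chr4:95049034-95052222 on the minus strand, Junb at chr8:84974484-84978718 on the minus strand and Jund at chr8:70698949-70700616 on the plus strand. Atf3 lies at chr1:191170296-191218039 on the minus strand, Ier2 at chr8:84661331-84662852 on the minus strand and Nr4a1 at chr15:101254269-101274795 on the plus strand. Of the 10, 4 overlap a gene on the other strand: Jun overlaps Junos, Junb overlaps Prdx2, Jund overlaps Gm11175 and Atf3 overlaps Gm24748. Whether counting used the strand is not given in the sources used here, so reads of these pairs cannot be told apart.

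The RefSeq promoter table (GRCm38.p6) held 8 of the 10 genes, without Egr1 and Ier2. The 4 promoters below belong to the members with an entry whose level in mature-neutrophil-like cells was at least 1.5-fold lower after MCAO, and each runs from 250 bases before to 50 bases after the annotated start. They are Fos at chr12:85473640-85473939 (plus strand), Jun at chr4:95052173-95052472 (minus strand), Atf3 at chr1:191183284-191183583 (minus strand) and Nr4a1 at chr15:101266596-101266895 (plus strand). The RefSeq starts of Fosb, Fosl2, Atf3 and Nr4a1 lie inside the longer GENCODE genes. That of Junb lies before its GENCODE start, and the window of Jund (chr8:70697489-70697788) ends before its GENCODE start. Capitals mark the short form of the cAMP response element, TGACG on either strand (printed CGTCA on the other strand), which CREB and ATF proteins can bind, and in Jun the AP-1 variant TGACATCA.
Fos: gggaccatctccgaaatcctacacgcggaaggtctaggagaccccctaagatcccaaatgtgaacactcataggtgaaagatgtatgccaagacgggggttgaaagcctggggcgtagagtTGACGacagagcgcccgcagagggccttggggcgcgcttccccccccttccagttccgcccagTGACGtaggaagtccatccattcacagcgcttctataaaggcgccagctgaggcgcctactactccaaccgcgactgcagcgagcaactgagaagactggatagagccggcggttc
Jun: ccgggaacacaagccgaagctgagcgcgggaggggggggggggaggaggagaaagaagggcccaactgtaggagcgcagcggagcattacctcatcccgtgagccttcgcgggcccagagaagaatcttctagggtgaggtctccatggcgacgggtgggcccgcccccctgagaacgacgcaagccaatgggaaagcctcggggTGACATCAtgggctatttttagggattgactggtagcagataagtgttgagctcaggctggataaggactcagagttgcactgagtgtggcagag
Atf3: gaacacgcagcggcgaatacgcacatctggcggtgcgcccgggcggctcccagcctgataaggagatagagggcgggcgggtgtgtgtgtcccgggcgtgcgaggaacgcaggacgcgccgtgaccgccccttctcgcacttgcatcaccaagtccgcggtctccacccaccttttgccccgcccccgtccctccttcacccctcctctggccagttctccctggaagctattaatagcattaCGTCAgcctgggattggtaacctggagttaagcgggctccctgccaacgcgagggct
Nr4a1: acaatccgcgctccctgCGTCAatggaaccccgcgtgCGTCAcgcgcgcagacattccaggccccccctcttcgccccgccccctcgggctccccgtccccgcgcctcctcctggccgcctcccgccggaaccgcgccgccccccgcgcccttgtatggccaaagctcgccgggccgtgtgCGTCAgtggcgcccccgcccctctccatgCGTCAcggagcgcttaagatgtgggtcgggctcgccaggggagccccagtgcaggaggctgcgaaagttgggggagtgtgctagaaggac
The short form was found in 5 of the 8 promoters (Fos, Fosb, Junb, Atf3 and Nr4a1), against 20.8% of all 32851 promoters in the table. Nr4a1 held 4 short forms, a number reached by 0.231% of all promoters, and Fos held 2, a number reached by 5.01%. TGACATCA was found in Jun and in 3.62% of all promoters. The Egr1 site GCGNGGGCG was found in Fosb, Fosl2 and Nr4a1 and in 5.55% of all promoters, and the TATA box TATAAA in Fos and Junb and in 13.6%. TATAAA began at position -33 from the annotated start in Fos, but at position 1 in Junb. The full cAMP response element TGACGTCA, the AP-1 site TGANTCA, the NBRE site AAAGGTCA that Nr4a1 binds and the CArG box of serum response factor were in none of the 8 windows, and in 1.79%, 7.81%, 1.51% and 1.63% of all promoters. Both strands were searched; the full response element contains the short form, and no capitalised site overlaps an Egr1 site or TATA box. These matches describe letters in a window of 300 bases, and say nothing of binding in these cells.

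**Figure D1:**
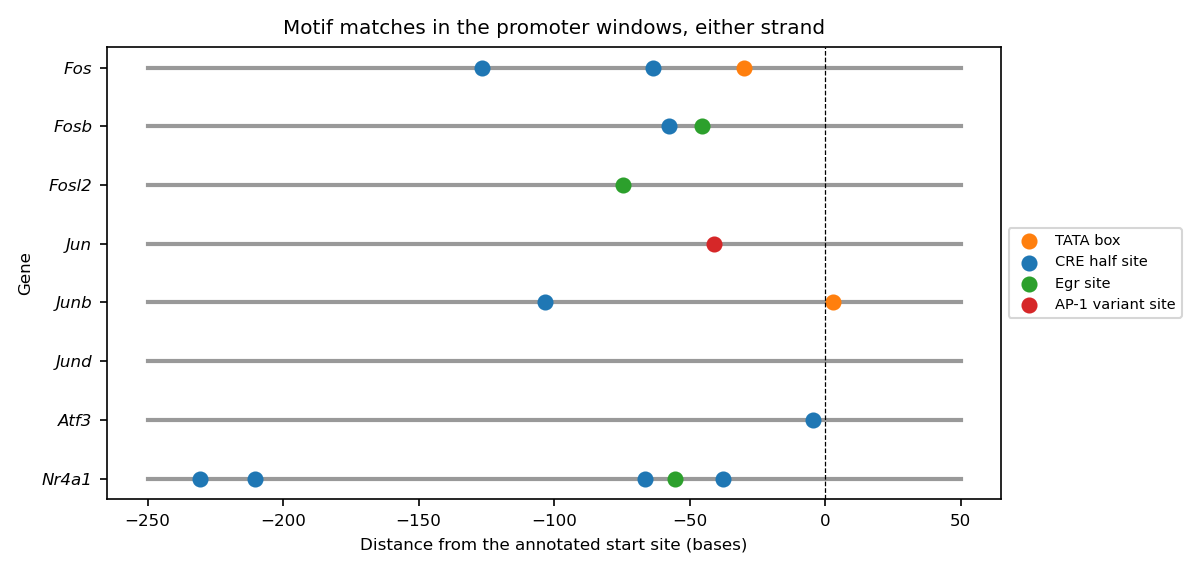
Positions of motif matches (points, coloured by motif) on the promoter windows of 8 genes (grey lines), with the distance from the annotated start site in bases on the x axis. Nr4a1 carries 4 short cAMP response elements (blue), Fos carries 2, and the Jund window, which ends before the GENCODE start of Jund, carries none of the motifs searched.

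Each gene had its own order over the 13 compared classes, and most orders were alike in both libraries. The Fos family was led by mature neutrophils or by basophils. Fos, the founding Fos subunit, was highest in mature-neutrophil-like cells, with a level of 10.9 in the MCAO library and 17.6 in the control library, followed in both by monocyte-like cells at 7.55 (MCAO) and 11.1 (control). Intervals of these neighbours did not overlap in either library. Erythroid-like cells were the lowest class for Fos, at 0.398 in the MCAO library and 0.392 in the control library, so mature-neutrophil-like cells stood 27.5-fold (MCAO) and 44.8-fold (control) above them. Fosl2, a Fos relative that lacks the strong activation domain of Fos, was also highest in mature-neutrophil-like cells, at 4.45 in the MCAO library and 6.21 in the control library. Fosb was highest in basophil-or-mast-like cells, at 5.98 in the MCAO library and 4.51 in the control library, and mature-neutrophil-like cells came next at 1.28 (MCAO) and 1.57 (control).

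The 3 Jun genes differed in where they were high. Jun, the strongest activator of the family, was highest in basophil-or-mast-like cells, at 11.7 in the MCAO library and 7.57 in the control library. Its next class was monocyte-like cells, at 2.45 (MCAO) and 3.68 (control); in the control library that interval overlapped that of the pro-B-or-pre-B-like class at 3.53. Junb, which can hold back Jun and limits myeloid growth, was highest in mature-neutrophil-like cells, at 9.04 in the MCAO library and 8.14 in the control library, and lowest in pre-neutrophil-like cells, at 0.645 (MCAO) and 0.873 (control). Jund, the Jun gene least dependent on stimulation, was the member with high levels in lymphocytes. Basophil-or-mast-like cells at 12.2 and B-cell-like cells at 11.7 led in the MCAO library with overlapping intervals, and pro-B-or-pre-B-like cells at 16.0 led in the control library ahead of B-cell-like cells at 13.6.

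Atf3, a stress-induced repressor of inflammatory genes, was highest in monocyte-like cells, at 0.705 in the MCAO library and 1.45 in the control library, with mature-neutrophil-like cells next at 0.198 (MCAO) and 0.923 (control). Of the 13 classes, only these 2 reached 50 UMIs over both libraries; in the MCAO library the mature-neutrophil-like interval overlapped the next class. Nr4a1, an orphan nuclear receptor, was also highest in monocyte-like cells, at 1.82 in the MCAO library and 3.02 in the control library, with B-cell-like cells next at 0.758 (MCAO) and 2.15 (control). Natural killer-like cells, too few to compare, stood at 2.11 (MCAO) and 1.01 (control). Egr1, a zinc finger activator, was highest in basophil-or-mast-like cells, at 5.47 in the MCAO library and 2.80 in the control library, and the other compared classes were at 0.589 or below in the MCAO library and at 0.935 or below in the control library. Among the classes too small to compare, Egr1 stood at 1.75 (MCAO) and 2.92 (control) in eosinophil-like cells and at 1.64 (MCAO) and 0.660 (control) in natural killer-like cells. Ier2, a nuclear protein of the early response, had a narrow range over the classes: its highest class, basophil-or-mast-like cells at 3.41 (MCAO, overlapping mature-neutrophil-like cells) and 3.91 (control), stood 6.89-fold above the lowest in the MCAO library and 6.84-fold above it in the control library. The Spearman correlation between the class orders of the libraries, over 13 classes, ranged from 0.885 to 0.973 for 9 members and was 0.357 for Atf3, whose counts were low in most classes.

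**Figure D2:**
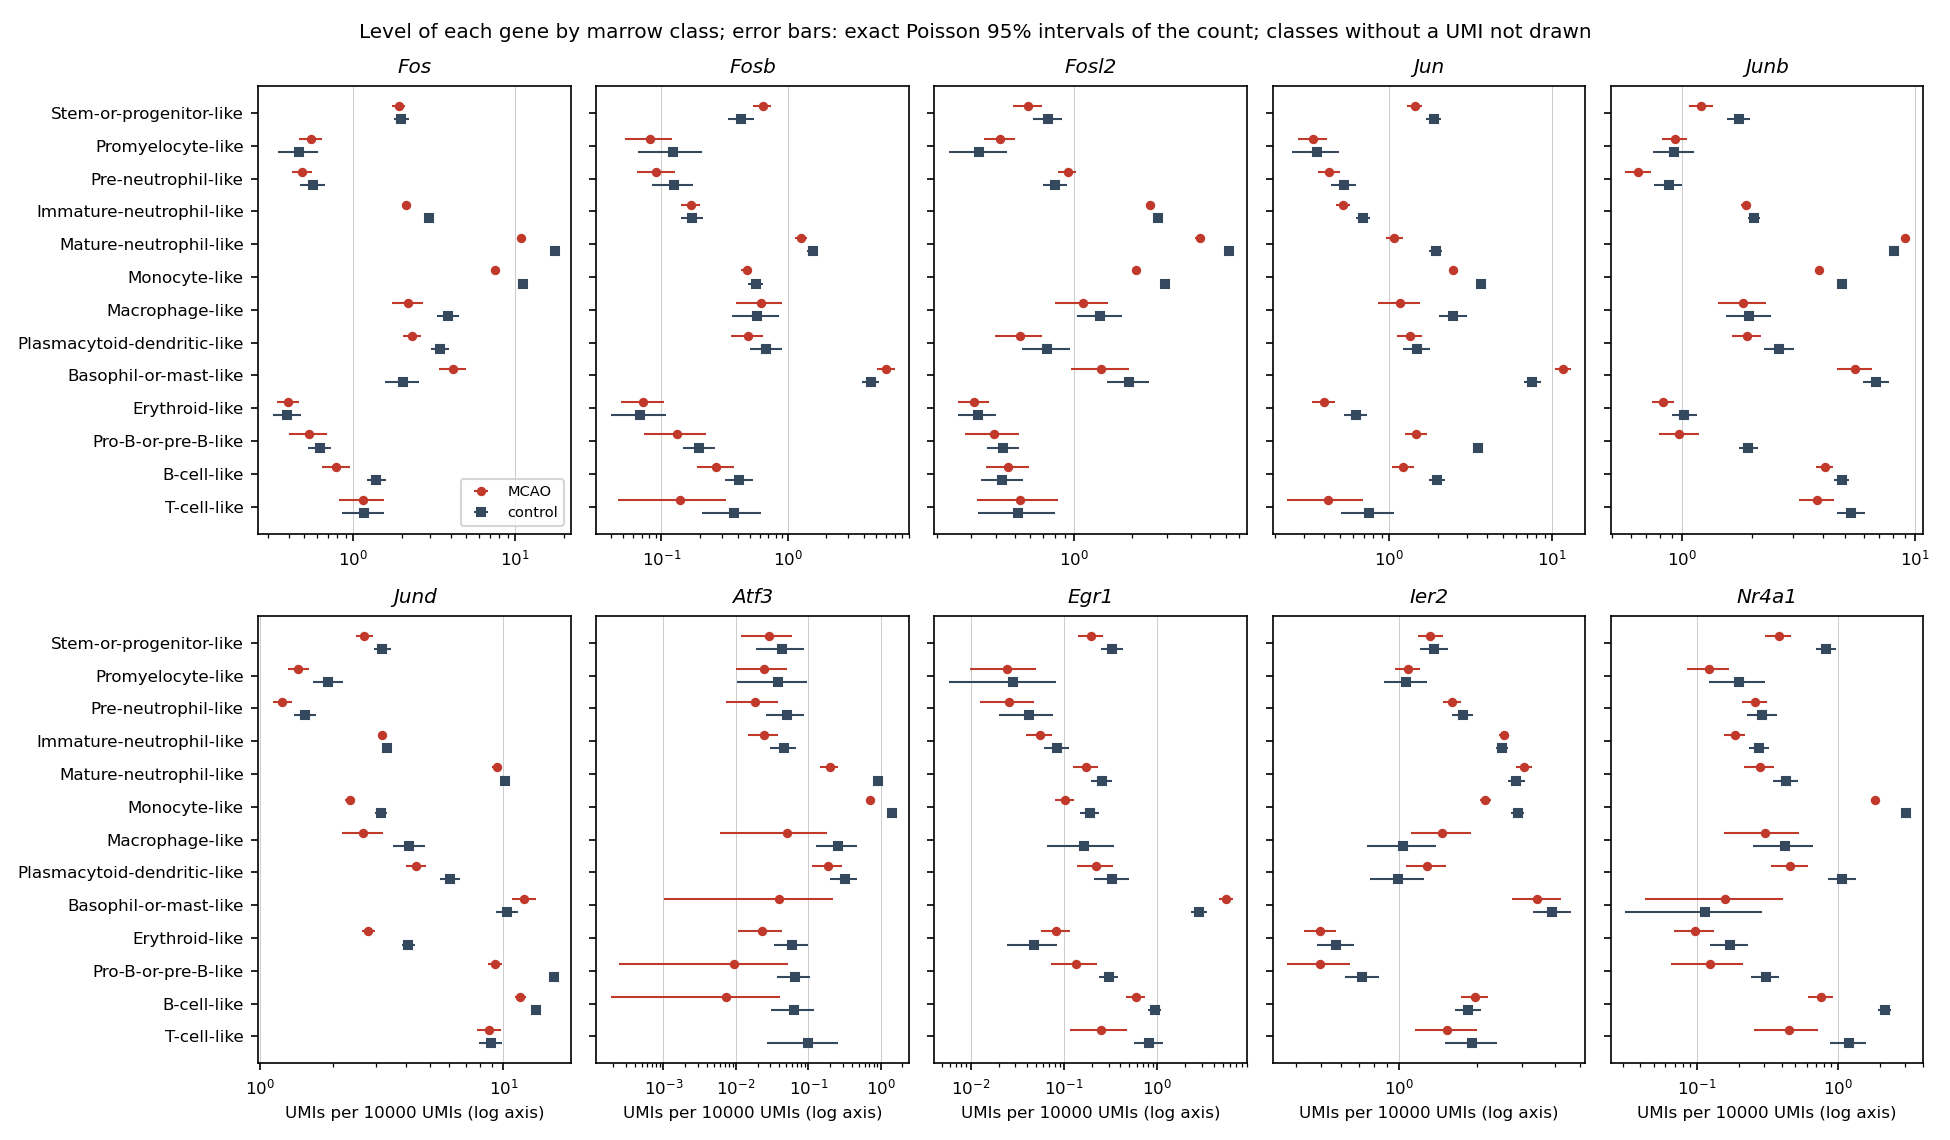
Level of each gene (UMIs per 10000 UMIs, log axis) in 13 marrow classes, for the MCAO library (red circles) and the control library (dark squares), with exact Poisson 95% intervals. Fos reached 10.9 (MCAO) and 17.6 (control) in mature-neutrophil-like cells, and Egr1 stood at 5.47 (MCAO) and 2.80 (control) in basophil-or-mast-like cells.

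Transcripts of some members came mainly from 1 class. Monocyte-like cells carried 80.3% of the Atf3 UMIs and 64.8% of the Nr4a1 UMIs of the MCAO library, and 62.1% of the Atf3 and 51.1% of the Nr4a1 UMIs of the control library. For Fos, monocyte-like cells carried 46.8% of the UMIs of the MCAO library and 37.0% of those of the control library, and mature-neutrophil-like cells 24.1% (MCAO) and 34.9% (control). Pro-B-or-pre-B-like cells carried 7.3% of the Jund UMIs of the MCAO library and 25.6% of those of the control library, in which they were 719 of 5212 cells, against 205 of 5398 in the MCAO library.

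Set side by side, the MCAO library had lower levels of these genes in most classes. Of the 130 pairs of a gene and a class, 105 had at least 50 UMIs over both libraries. Of these, 86 had a lower level in the MCAO library and 19 a higher one; the interval lay below 1 in 54 and above 1 in 7. At least a 1.5-fold lower level was seen in 29 pairs and at least a 1.5-fold higher one in 3, which are 27.6% and 2.86% of the pairs, while over all genes in the same classes 6.59% were that much lower and 5.22% that much higher. The median log2 ratio over all genes lay between -0.07 and 0.01 in the 13 classes. Pairs share 2 libraries and are not independent of each other. Pairs with under 50 UMIs passed no filter and are not counted, among them 11 of the 13 Atf3 pairs.

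By gene, Nr4a1 was at least 1.5-fold lower in the MCAO library in 9 of the 11 classes that could be compared, and its level was below that of the control library in all 11. Egr1 was that much lower in 6 of 7 classes, Jun in 5 of 12, Fos in 3 of 13, Atf3 in 2 of 2, Jund in 2 of 13, Junb in 1 of 13 and Fosb in 1 of 9. Fosl2 and Ier2 passed 1.5-fold in none of 12 and 13 classes. Ier2 was split, with 7 classes lower and 6 higher in the MCAO library, and a median log2 ratio of -0.05.

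**Figure D3:**
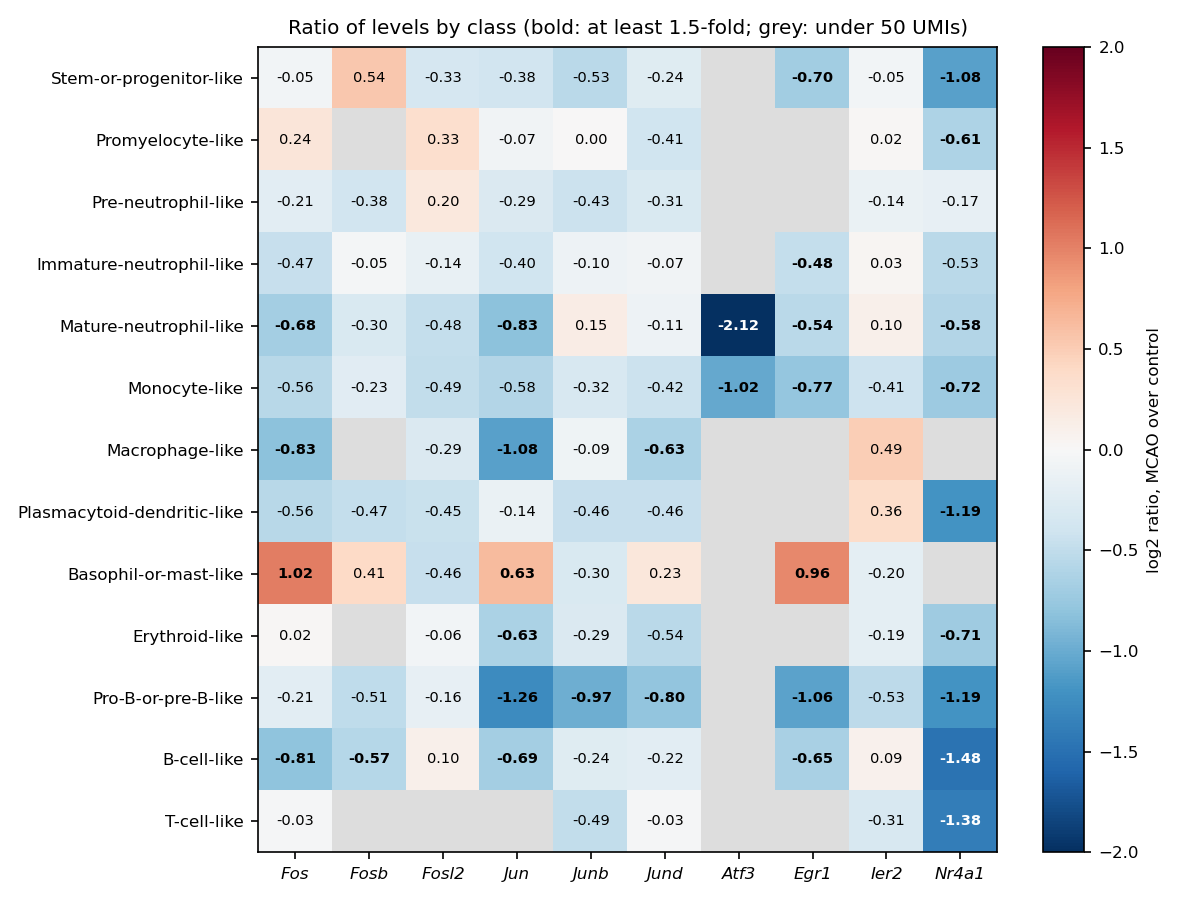
Log2 ratio of the MCAO level over the control level for each gene (columns) in each marrow class (lines of the grid), from blue (lower in the MCAO library) to red (higher), with bold values at least 1.5-fold and grey fields under 50 UMIs. The Nr4a1 column runs between -1.48 and -0.17, and basophil-or-mast-like cells hold the 3 bold positive values, 1.02, 0.63 and 0.96.

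In mature-neutrophil-like cells, Fos, Jun, Atf3, Egr1 and Nr4a1 were lower in the MCAO library while Junb, Jund and Ier2 were close to their control levels over the class as a whole. Thus 5 of 10 members were at least 1.5-fold lower and 0 that much higher, where 7.62% of 6052 genes were that much lower and 5.82% that much higher. Fos had 2821 UMIs in the MCAO library and 4111 in the control library, a ratio of 0.622 (0.593 to 0.653). After thinning each cell to 1000 UMIs, a Fos UMI was found in 52.6% of the class after MCAO and in 69.7% of it in the control library; in erythroid-like cells the shares were 4.47% (MCAO) and 2.60% (control). Jun had a level of 1.08 in the MCAO library and 1.93 in the control library, a ratio of 0.559 (0.480 to 0.651). Atf3 was the member furthest from its control level, with 51 UMIs in the MCAO library and 216 in the control library, a ratio of 0.214 (0.155 to 0.292).

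Egr1 and Nr4a1 rested on few UMIs in these cells. Egr1 had 44 UMIs in the MCAO library and 60 in the control library, a ratio of 0.665 (0.440 to 0.998), and Nr4a1 had 72 (MCAO) and 100 (control), a ratio of 0.653 (0.475 to 0.893). Fosl2 had a ratio of 0.717 (0.663 to 0.775) and Fosb one of 0.811 (0.697 to 0.943), both short of 1.5-fold. Junb was slightly higher in the MCAO library, with a ratio of 1.11 (1.04 to 1.18), Ier2 had a ratio of 1.07 (0.966 to 1.19) and Jund one of 0.928 (0.877 to 0.983). Jun and Junb thus had ratios on opposite sides of 1, with intervals that lay apart. The direction was less firm for Fosb, Jund and Ier2, which changed sides of 1 with how the cells were clustered or selected.

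The class is made up differently in the libraries. Cluster 5, led by Il1b, Ifitm1 and H2-Q10, held 47.3% of the class in the MCAO library and 20.8% in the control library; cluster 1, led by interferon-induced Ifit3 and Ifit3b, held 36.1% (MCAO) and 78.9% (control); cluster 17, led by stefin A genes, held 16.6% (MCAO) and 0.3% (control). In cluster 17 of the MCAO library, Fos stood at 5.22, Fosb at 0.360 and Jun at 0.396, below the class as a whole, while Fosl2 at 4.13 and Ier2 at 3.13 were close to the class. Without it, 2 of the 10 members (Jun and Atf3) instead of 5 were at least 1.5-fold lower (background 6.68%). When cells were clustered more finely (background 6.81%), or with the immediate early genes included (background 6.64%), only Atf3 was. A count of 1 of 10 members is near these backgrounds. All 5 had a level below that of the control library under these settings, with log2 ratios of Fos between -0.49 and -0.40, and of Egr1 as small as -0.02.

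Within each large cluster, Fos, Jun and Atf3 were lower in the MCAO library, and cluster 5 had the larger gap. Fos stood at 13.6 in the MCAO library and 26.8 in the control library in cluster 5, a ratio of 0.508 (0.467 to 0.552), and at 11.3 (MCAO) and 16.1 (control) in cluster 1, a ratio of 0.706 (0.658 to 0.756). Atf3 stood at 0.210 in the MCAO library and 2.64 in the control library in cluster 5, a ratio of 0.0794 (0.0474 to 0.128), and at 0.267 (MCAO) and 0.636 (control) in cluster 1, a ratio of 0.419 (0.264 to 0.643). In cluster 5, an Atf3 UMI was found in 14 of 420 cells of the MCAO library and in 36 of 208 of the control library, although the control cells were shallower (median 1547 UMIs, against 2338 in the MCAO library). The 10 control cells richest in Atf3 held 49 of its 89 UMIs there, and without them the control level was 1.26.

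Fosb went opposite ways in the 2 clusters. In cluster 5 its level was 1.62 in the MCAO library and 4.89 in the control library, a ratio of 0.331 (0.266 to 0.413), and in cluster 1 it was 1.43 in the MCAO library and 1.02 in the control library, a ratio of 1.40 (1.12 to 1.75). Whether these ratios differ beyond the spread between mice was not tested. In cluster 1, 10 cells held 55 of 139 Fosb UMIs in the MCAO library and 55 of 203 in the control library. Without them the Fosb levels there were closer, at 0.881 (MCAO) and 0.750 (control). Junb was alike in both libraries in both clusters, at 11.1 (MCAO) and 10.8 (control) in cluster 5 and at 8.53 (MCAO) and 7.70 (control) in cluster 1.

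**Figure D4:**
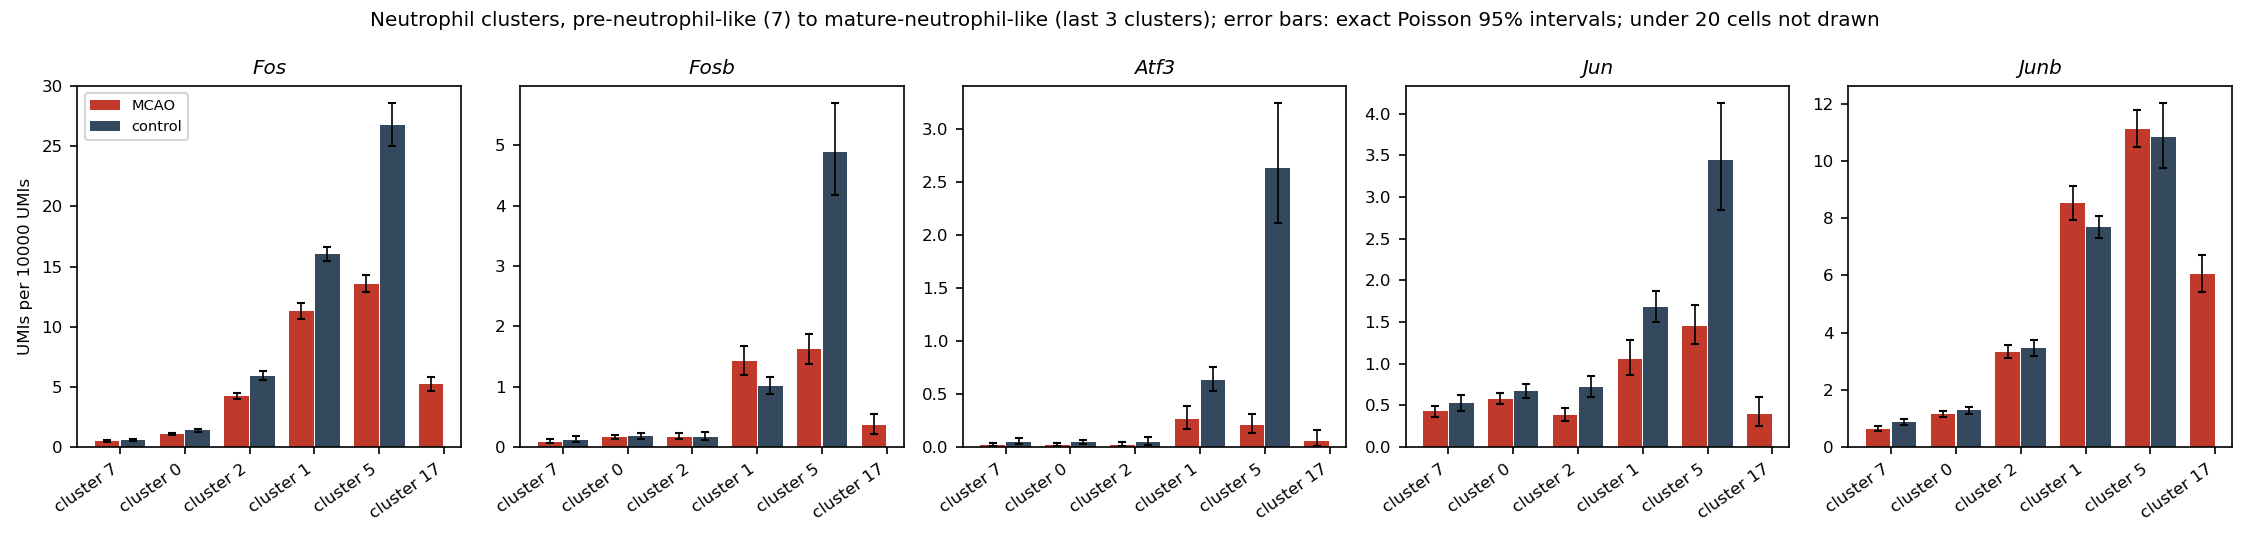
Levels of Fos, Fosb, Atf3, Jun and Junb (UMIs per 10000 UMIs) in clusters of neutrophil-lineage cells, from pre-neutrophil-like (7) over immature (0, 2) to mature (1, 5, 17), in the MCAO library (red, left bars) and the control library (dark, right bars), with exact Poisson 95% intervals; cluster 17 of the control library had 3 cells and is not drawn. Fos in cluster 5 reached 13.6 (MCAO) and 26.8 (control), while Junb stood at 11.1 (MCAO) and 10.8 (control).

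Along the neutrophil lineage, Fos, Fosl2, Junb and Jund were low in precursors and high in mature cells in both libraries. For Fos the levels in pre-neutrophil-like, immature-neutrophil-like and mature-neutrophil-like cells were 0.485, 2.13 and 10.9 in the MCAO library and 0.564, 2.96 and 17.6 in the control library. For Junb they were 0.645, 1.88 and 9.04 in the MCAO library and 0.873, 2.02 and 8.14 in the control library. At the early stages, counts at 1.5-fold were near the background: 0 of 8 members were that much lower in pre-neutrophil-like cells (background 4.09%), and 1 of 9 in immature-neutrophil-like cells (background 4.64%), namely Egr1 with a ratio of 0.651 (0.419 to 1.01). Smaller gaps were present: 7 of the 8 members in pre-neutrophil-like cells and 8 of the 9 in immature-neutrophil-like cells had a lower level in the MCAO library. Junb in pre-neutrophil-like cells had a ratio of 0.739 (0.612 to 0.892). Fos in immature-neutrophil-like cells had a ratio of 0.721 (0.673 to 0.772), with levels below the control library in both clusters of that class.

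Thinned to 1000 UMIs, the tenth of mature-neutrophil-like cells richest in the 10 genes held 26.4% of their UMIs in the MCAO library and 25.5% in the control library. At least 3 of the 10 genes were found in 47.2% (43.9% to 50.5%) of these cells in the MCAO library and in 57.4% (54.2% to 60.5%) in the control library. Fosb kept company with Fos: after thinning, a Fosb UMI was found in 16.1% of Fos-positive and 3.8% of Fos-negative cells of the class after MCAO, and in 13.6% of Fos-positive and 3.06% of Fos-negative ones of the control library. Ier2 did not show this, with 20.6% of Fos-positive and 24.2% of Fos-negative cells in the MCAO library, and 21.2% of Fos-positive and 22.4% of Fos-negative cells in the control library.

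In monocyte-like cells, all 10 members were lower in the MCAO library, and 3 of 10 (Atf3, Egr1 and Nr4a1) were at least 1.5-fold lower (background 5.07%). Atf3 had 511 UMIs in the MCAO library and 569 in the control library, which at the depth of the class is a ratio of 0.485 (0.430 to 0.548). Nr4a1 had a ratio of 0.604 (0.558 to 0.654) and Egr1 one of 0.541 (0.386 to 0.756). Jun at 0.667 (0.622 to 0.716) and Fos at 0.679 (0.652 to 0.706) came close to 1.5-fold. At least 3 of the 10 genes were found in 29.1% (26.0% to 32.4%) of monocyte-like cells of the MCAO library and in 48.7% (44.3% to 53.0%) of the control library after thinning. RNA of neutrophil granule and calprotectin genes was also higher in monocyte-like cells of the MCAO library (summed level 197, against 137 in the control library); its part in the ratios was not tested.

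The monocyte clusters differed far more from each other than the libraries did for Nr4a1. Cluster 19, with 46 cells in the MCAO library and 67 in the control library, was led by Ace, Ly6i and Cd300e, of which Ace and Cd300e are known from patrolling, Ly6C-low monocytes, and Nr4a1 was among its 10 leading genes although it was not used for clustering. Its Nr4a1 level was 15.6 (13.7 to 17.7) in the MCAO library and 17.5 (15.9 to 19.3) in the control library, with overlapping intervals, and an Nr4a1 UMI was found in 91.3% of its cells in the MCAO library and 94.0% in the control library. In cluster 3, led by Vcan, Ms4a8a and Ccr2, Nr4a1 stood at 2.49 (MCAO) and 3.48 (control), and in cluster 9, led by Itga1 and Klf4, at 0.568 (MCAO) and 0.928 (control). The name of cluster 19 rests on a marker score alone, and it fell short of 50 cells in the MCAO library, so no ratio is given for it. It made up 5.62% of the class in the MCAO library and 12.4% in the control library, so its share moves with the Nr4a1 ratio of the class, while clusters 3 and 9 taken alone had Nr4a1 ratios of 0.715 (0.643 to 0.796) and 0.612 (0.50 to 0.751). Atf3 was lower in the MCAO library in all 3 monocyte clusters: 0.164 (MCAO) and 0.314 (control) in cluster 9, 1.25 (MCAO) and 2.59 (control) in cluster 3, and 0.991 (MCAO) and 3.0 (control) in cluster 19.

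In B-cell-like cells, 5 of 9 members (Fos, Fosb, Jun, Egr1 and Nr4a1) were at least 1.5-fold lower in the MCAO library (background 6.29%). Nr4a1, which antigen receptor signals induce in lymphocytes, had 103 UMIs in the MCAO library and 333 in the control library, a ratio of 0.353 (0.280 to 0.442). Cluster 4, which held 67.0% of the class in the MCAO library and 52.9% in the control library, was led by Ighd, Fcer2a and H2-DMb2, genes of mature B cells. There Nr4a1 stood at 0.970 in the MCAO library and 3.68 in the control library, a ratio of 0.264 (0.204 to 0.338), Fos had a ratio of 0.461 (0.352 to 0.600) and Egr1 one of 0.462 (0.307 to 0.686). In cluster 8, led by Ms4a1, Tnfrsf13c and Iglc2, Nr4a1 stood at 0.397 (MCAO) and 0.671 (control), a ratio of 0.592 (0.335 to 1.01), and Egr1 had a ratio of 0.922 (0.608 to 1.38). Jund had a ratio of 0.861 (0.806 to 0.919) over the class.

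**Figure D5:**
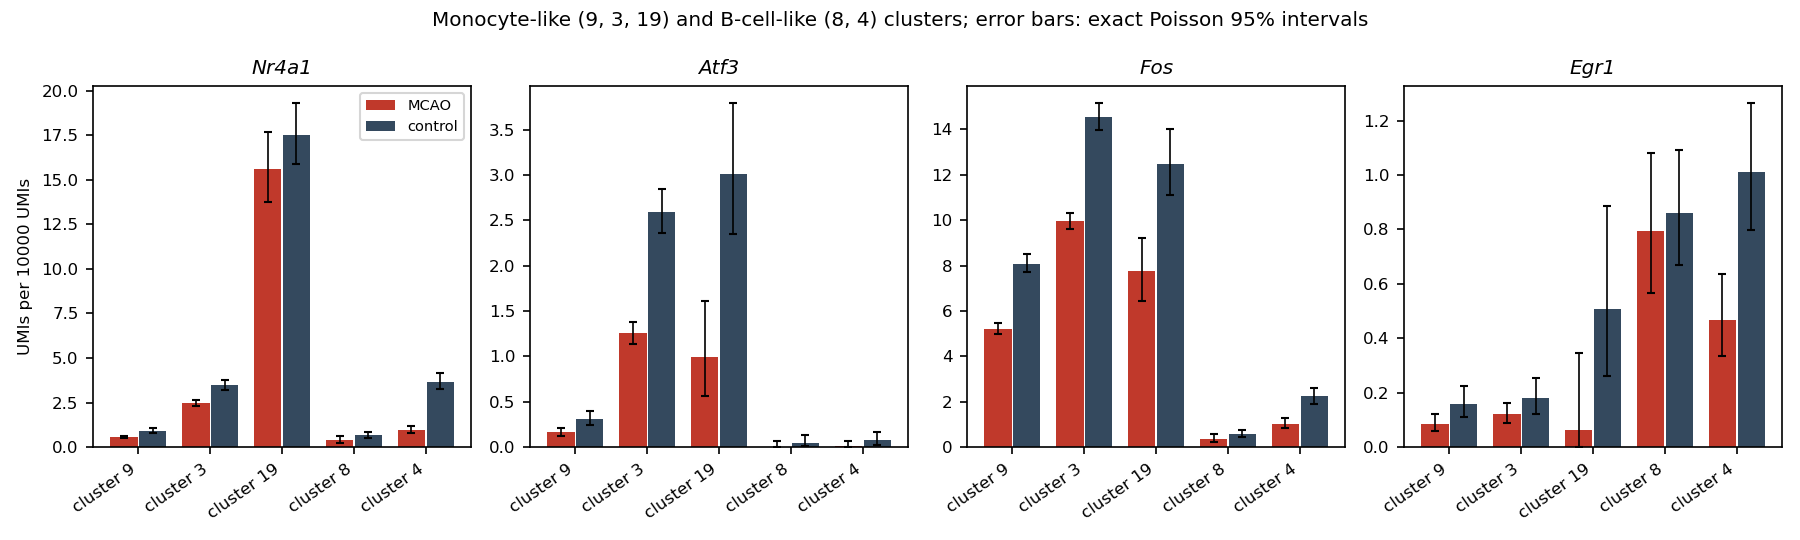
Levels of Nr4a1, Atf3, Fos and Egr1 (UMIs per 10000 UMIs) in monocyte-like clusters 9, 3 and 19 and B-cell-like clusters 8 and 4, in the MCAO library (red, left bars) and the control library (dark, right bars), with exact Poisson 95% intervals. Nr4a1 stood at 15.6 (MCAO) and 17.5 (control) in cluster 19, and at 0.970 (MCAO) and 3.68 (control) in cluster 4.

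Pro-B-or-pre-B-like cells had 5 of 9 members at least 1.5-fold lower in the MCAO library, Jun, Junb, Jund, Egr1 and Nr4a1 (background 9.64%). Jund, with 970 UMIs in the MCAO library and 3955 in the control library, had a ratio of 0.575 (0.536 to 0.617), and Jun a ratio of 0.415 (0.348 to 0.493). The mix of clusters moved with these values. Taken alone, cluster 6 had 1 member at least 1.5-fold lower (background 11.6%) and cluster 14 had 3 (background 8.69%). Members with under 50 UMIs in a cluster were not counted there. Cluster 6, led by Rag1, Il2ra and Atp1b1, held 56.6% of the class in the MCAO library and 70.4% in the control library and had a high Jund level, 22.9 (MCAO) and 26.2 (control), a ratio of 0.873 (0.795 to 0.957) within the cluster. In cluster 14 Jund stood at 5.46 (MCAO) and 9.63 (control), a ratio of 0.567 (0.50 to 0.642). Levels are shares of UMIs, and cells of cluster 6 were shallower (median 1808.5 UMIs, against 5751 in cluster 14). A Jund UMI was found in 95.7% (MCAO) and 93.1% (control) of the cells of cluster 6. In cluster 14 it was found in 96.7% (MCAO) and 94.8% (control). Jun was lower in both, with ratios of 0.593 (0.464 to 0.750) in cluster 6 and 0.524 (0.378 to 0.715) in cluster 14.

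In basophil-or-mast-like cells, some members went the other way. Fos, Jun and Egr1, 3 of 8 members, were at least 1.5-fold higher in the MCAO library and 0 lower, where 9.81% of 2600 genes were that much higher and 10.7% that much lower. Fos had a level of 4.12 in the MCAO library and 2.03 in the control library, a ratio of 2.03 (1.49 to 2.79), Egr1 a ratio of 1.95 (1.5 to 2.56) and Jun a ratio of 1.54 (1.3 to 1.83). The other way round, 3 of the 8 members had a lower level in the MCAO library: Fosl2 with a ratio of 0.725 (0.467 to 1.11), Junb with 0.810 (0.653 to 1.00) and Ier2 with 0.871 (0.657 to 1.15). The class held only 50 cells in the MCAO library and 56 in the control library, and Egr1 was uneven in it: 10 cells held 114 of 138 UMIs in the MCAO library and 83 of 98 in the control library. For Fos, 10 cells held 62 of 104 UMIs (MCAO) and 46 of 71 (control), and for Jun 162 of 295 (MCAO) and 131 of 265 (control). Thinned, a Fos UMI was found in 38% of these cells in the MCAO library and 17.9% in the control library. At full depth, a Jun UMI was found in 40 of 50 cells in the MCAO library and 50 of 56 in the control library, the other direction from its ratio. Averaged over cells instead of over UMIs, Jun had a log2 ratio of 0.46, short of 1.5-fold.

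The remaining compared classes are described more briefly. In stem-or-progenitor-like cells, 2 of 9 members were at least 1.5-fold lower in the MCAO library, Nr4a1 with a ratio of 0.460 (0.351 to 0.600) and Egr1 with 0.591 (0.395 to 0.881) (background 5.1%), and Fosb was higher with a ratio of 1.47 (1.11 to 1.96). In macrophage-like cells 3 of 6 were lower, Fos, Jun and Jund, in a class where the background was itself high at 17.0%. T-cell-like cells had 1 of 5 lower (Nr4a1, ratio 0.375, 0.199 to 0.671, background 11.0%) and plasmacytoid-dendritic-like cells 1 of 8 (Nr4a1, ratio 0.428, 0.291 to 0.624, background 7.11%). At resolution 2, a conventional-dendritic-like cluster of 51 (MCAO) and 33 (control) cells stood apart. The plasmacytoid-dendritic-like class then held 119 (MCAO) and 115 (control) cells, with 1 member that much lower (background 6.98%) and 1 that much higher. Promyelocyte-like cells had 1 of 7 lower (Nr4a1, 35 UMIs in the MCAO library and 21 in the control library, with an interval that included 1; background 4.63%). At resolution 2, and with a mean over cells, 0 members were that much lower in promyelocyte-like cells. Erythroid-like cells had 2 of 7 lower, Jun with a ratio of 0.633 (0.503 to 0.796) and Nr4a1 with 0.567 (0.356 to 0.898), against a background of 5.64%.

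Other genes of the pathway were read in mature-neutrophil-like cells, against the same background of 7.62% lower and 5.82% higher, and over the class as a whole, cluster 17 included. Of 25 other immediate early genes with at least 50 UMIs, 6 were at least 1.5-fold lower in the MCAO library and 1 higher, with a median log2 ratio of -0.31. Trib1, a pseudokinase that promotes decay of C/EBP factors, had a level of 3.89 in the MCAO library and 6.79 in the control library, Plk2 one of 0.163 (MCAO) and 0.363 (control), and Nfkbiz and Csrnp1 had ratios of 0.630 and 0.640. Dual specificity phosphatases, which switch MAP kinases off, had 2 of 5 lower: Dusp2 with a ratio of 0.475 (0.323 to 0.688) and Dusp5 with 0.609 (0.485 to 0.763). Dusp1 stood at 15.2 (MCAO) and 20.1 (control), and Dusp16 had a ratio of 0.907.

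Kinases and factors upstream had a median near 0. Of 21 MAP kinase, ribosomal S6 kinase, ternary complex and CREB family genes, 1 was lower and 1 higher, with a median log2 ratio of 0.06. Map2k7, the kinase that activates JNK, was higher with a ratio of 1.73 (1.13 to 2.71), Elk3 was lower with a ratio of 0.652 (0.364 to 1.15), and Rps6ka1 and Map3k8 had ratios of 1.45 and 1.47, short of 1.5-fold. Among 7 other AP-1 family genes 1 was lower, Mafk with a ratio of 0.632 (0.354 to 1.11), while Atf4 had a ratio of 0.735, Batf one of 0.791 and Atf2 one of 1.17. Of 7 feedback genes 1 was lower, the kinase gene Sik1 with a ratio of 0.525 (0.440 to 0.625), while Zfp36, whose protein speeds decay of AU-rich transcripts, had a ratio of 0.893, Ccnl1 one of 0.905 and Zfp36l1 one of 1.12. Of 6 heat shock genes 1 was lower, Dnaja1 with a ratio of 0.590 (0.499 to 0.696), and Hsp90aa1, Hspa8 and Hspd1 had ratios of 0.693, 0.890 and 0.854.

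Of 14 genes with known AP-1 or Egr1 sites, 4 were at least 1.5-fold lower after MCAO in mature-neutrophil-like cells and 0 higher, with a median log2 ratio of -0.38. Their summed level was 85.5 in the MCAO library and 84.7 in the control library. This list, like those above, was chosen with earlier results of these data known. The matrix protein gene Thbs1 stood at 0.457 in the MCAO library and 3.47 in the control library, a ratio of 0.132 (0.108 to 0.160). The chemokine genes Ccl3 and Ccl4 had ratios of 0.228 (0.168 to 0.305) and 0.389 (0.287 to 0.522), and Ptgs2, the inducible prostaglandin synthase, had 0.250 (0.197 to 0.314). Among B-cell precursors (the pro-B-or-pre-B-like class), 14 of 25 other immediate early genes and 5 of 5 dual specificity phosphatases were at least 1.5-fold lower, with medians of -0.61 and -0.83, where 9.64% of all genes in that class were that much lower. In monocyte-like cells it was 4 of 29 and 4 of 6, where 5.07% of all genes were. The lists were not read within single clusters, and the mix of clusters in the pro-B-or-pre-B-like class differed between the libraries.

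The genes with the most similar pattern over 26 points, the 13 classes in each library, were named for each member. By Pearson correlation of log2 levels among 8650 genes, Fos was nearest to Nlrp3 (0.90), Tnfaip8l2 and Ccdc12, and Fosl2 to Cd300lb (0.96), Lilrb4 and Rab7. Fosb was nearest to Cd274 (0.83), Ccl4 and Ccl3, and Jun to Cebpg (0.84), Ssh3 and Adam17. Junb was nearest to Slc2a1 (0.88), Txnip and Akap13, and Jund to Kmt2e (0.94), Ddx6 and Pnrc1. Atf3 was nearest to Mia2 (0.85), Il13ra1 and Ifi204, Egr1 to Stx5a (0.86), Srsf5 and Ppcdc, Ier2 to Diaph1 (0.86), Rin3 and Plec, and Nr4a1 to Ms4a4c (0.87), Dusp7 and Psme2b. Among the members themselves, Fos and Fosl2 were most alike (0.85), then Fosb and Jun (0.82), while the correlation of Jund with Atf3 was -0.01. The points share 2 libraries, their depth and their free RNA, and neighbouring classes are stages of 1 lineage, so these values only describe the table.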

How the data were processed

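Both libraries came as 1 table of natural log values, which the authors deposited per gene and cell after scaling each cell to 10000; per the submitters' processing notes, fastp, STAR, UMI-tools and Seurat 4.0.6 were used with mm10. Undoing the log and scaling gave whole UMIs for 100% of 19373615 values (tolerance 0.01). All columns were mapped to a library by their first word, pinyin for control or stroke. Whether counting used the strand is not given in the sources used here. Cells were clustered with scikit-learn 1.9.0 and leidenalg 0.10.2 (2000 variable genes, 30 components, 20 neighbours, resolution 1), leaving out the 10 genes and other immediate early, phosphatase and heat shock genes. Doublet calling marked 42 cells in the MCAO library (0.778%) and 42 in the control library (0.806%), which were kept. Intervals were computed with scipy 1.17.1 (Clopper-Pearson for shares). Log2 ratios used a pseudocount of 0.02. Genes needed 50 UMIs over both libraries, and thinning drew 1000 UMIs per cell, leaving out 32 control mature-neutrophil-like cells, and 2 MCAO and 13 control monocyte-like cells. The procedure was tested on simulated data. The members and lists were chosen with earlier results of these data known; the rule that named clusters by marker score and the searches for the short response element and the AP-1 variant were chosen after the data were seen. Named were all members, up to 4 genes per list furthest from 0 in mature-neutrophil-like cells, and the 3 genes most like each member. Alternatives covered pseudocount, scaling, weighting of cells, depth, doublets, clustering, clusters alone, minimum UMIs and fold.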

Additional observations from a re-analysis of the deposited data

Results flagged for a closer look

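In basophil-or-mast-like cells (50 in the MCAO library and 56 in the control library), 3 members went opposite to other classes. Fos had a log2 ratio of MCAO over control of 1.02 there and was at least 1.5-fold lower in the MCAO library, with an interval below 1, in 3 other classes. Jun had a log2 ratio of 0.63 there and was lower by the same measure in 5 other classes. Egr1 had a log2 ratio of 0.96 there and was lower by the same measure in 5 other classes. With 1 library per group, these differences between classes were not tested.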

How the results depend on the processing

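No paired analysis was possible because each group had 1 library; for the same reason none could be left out. Of the 32 ratios past 1.5-fold, all 285 alternative values kept their direction. Part of this was fixed in advance, since another pseudocount cannot change a direction. Leaving out clusters over 90% from 1 library altered only mature-neutrophil-like cells. The 285 values are thus not 285 separate checks. The count of 5 members lower in mature-neutrophil-like cells changed with the setting, given here with the share of all genes lower. It became 3 with a mean over cells (8.21%), 3 with cells of 2000 to 4000 UMIs (7.21%) and 3 with genes of at least 200 UMIs (4.37%). It was 3 in cluster 1 alone (8.73%) and 2 without clusters over 90% from 1 library (6.68%). It was 1 at resolution 2 (6.81%), when the members were used for clustering (6.64%) and at a fold of 2 (1.77%). The 29 lower pairs became 9 at 2000 to 4000 UMIs, where 47 pairs could be compared, 16 with at least 200 UMIs, 46 with at least 1 UMI and 10 at a fold of 2. By class, 6.65% to 13.4% of all genes were lower at 2000 to 4000 UMIs, and 0.953% to 15.4% with at least 200 UMIs. With at least 1 UMI the share was 17.9% to 34.1%, and at a fold of 2 it was 0.737% to 4.26%. The 3 higher pairs, all in basophil-or-mast-like cells, could not be examined at 2000 to 4000 UMIs, where that class had too few cells and the count of 0 says nothing of them; the count became 6 at resolution 2, 5 with at least 1 UMI and 1 at a fold of 2. The 461 genes lower in mature-neutrophil-like cells became 130 with at least 200 UMIs, 4087 with at least 1 UMI and 107 at a fold of 2; these are 7.62% of genes in the first case, and 4.37%, 25.1% and 1.77% in the others. The cause was not tested, except that a higher minimum leaves fewer genes and a larger fold is harder to reach. Of the 30 genes named for likeness, 15 were also named by Spearman correlation.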

Other observations

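Natural killer-like cells, 41 in the MCAO library and 36 in the control library, were too few to compare. Their Nr4a1 level was 2.11 (1.51 to 2.88) in the MCAO library and 1.01 (0.660 to 1.48) in the control library. Their Egr1 level was 1.64 (1.11 to 2.33) in the MCAO library and 0.660 (0.385 to 1.06) in the control library. For Jund the levels were 7.72 (6.52 to 9.08) in the MCAO library and 7.73 (6.69 to 8.88) in the control library. Eosinophil-like cells, 25 in the MCAO library and 33 in the control library, had a Fos level of 9.30 (7.81 to 11) in the MCAO library and 6.33 (5.33 to 7.47) in the control library, and a Jun level of 2.76 (1.98 to 3.75) in the MCAO library and 6.69 (5.66 to 7.85) in the control library; immunoglobulin genes were among the genes that led that cluster.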
